A study of Mus musculus with 8 samples.

Results

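The genes described here encode the translation initiation factors (eIFs) and elongation factors (eEFs) of the mouse, together with the kinases, binding proteins and methyltransferases that are named after them. They were taken as every gene whose symbol in the deposited peak lists starts with Eif or Eef followed by a digit, with all of its peaks. This gave 57 of the 12413 genes with a peak in either list. They held 118 of the 23368 peaks of the PTC list and 155 of the 29586 peaks of the control list. 1 gene that fits the pattern was left out and is not reported here.

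The study mapped m6A, adenosine that carries a methyl group on its N6 position, in the RNA of mouse primary T cells. Cells given PTC for 24 h were set against control cells of the same time point, and the labels do not say what PTC is. Each condition had 2 immunoprecipitated (IP) samples, in which RNA fragments carrying m6A were pulled down, and 2 input samples, so that the 4 groups were PTC IP, PTC input, control IP and control input. All cells were grown in medium with 10% fetal bovine serum. The labels give neither strain, sex, age nor tissue of origin, and whether a culture or an animal stands behind more than 1 sample is not stated. The tables used here hold 1 peak list per condition and no value per sample, so no difference between PTC and control cells could be tested, and no p-value is given.

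Initiation factors bring the small ribosomal subunit, the initiator tRNA and the mRNA together. The eIF4 proteins bind the cap and unwind the leader, eIF2 carries the initiator tRNA, eIF3 holds the parts in place, and eIF1, eIF1A, eIF5 and eIF5B act at the start codon. Elongation factors then deliver each aminoacyl tRNA (eEF1A) and move the ribosome along (eEF2). Activated T cells raise protein synthesis, and its best known brakes are the phosphorylation of eIF2 and the binding of eIF4E by 4E-BPs, which mTOR releases by phosphorylating them. In mRNA, m6A lies mostly near stop codons, in 3′ untranslated regions (UTRs) and in long exons. Its commonest sequence is GGACT in DNA letters, with the methylated A in the middle.

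GGACT occurred at 97 places in the peaks of 40 of the 57 genes. Of these places 63 lay inside a peak in both lists, 12 in a PTC peak alone and 22 in a control peak alone. The same split over all genes was not computed. The control peaks of these genes covered more bases, 63501 nt against 48005 nt in the PTC list. By transcript region, 54 lay in a 3′ UTR, 39 in coding sequence and 4 in a 5′ UTR. Only the strand of the transcript was searched. The sequences below were chosen from those in the strongest peaks described further on, or in the peaks that separate the lists. The strongest Eif3a and Eif2ak1 peaks, and the control peaks of Eif4ebp2, hold further GGACT places that are not printed. Each sequence is read 5′ to 3′ on the transcript strand, with GGACT in capitals and 10 bases to each side. A match is a description of the sequence and does not show that the A is methylated.
Eif6 upstream site: tgagctgttgGGACTctgggcggca
Eif6 downstream site: cagggcgagaGGACTtggggcagga
Eif3a site: aaagatgaccGGACTgaagagaggg
Eif3j1 upstream site: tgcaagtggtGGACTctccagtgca
Eif3j1 downstream site: tattgatggaGGACTtcatatgtgg
Eif4a2 site: atatacttgtGGACTaaaagatata
Eif4g1 upstream site: gtggggcaggGGACTtggagccatg
Eif4g1 downstream site: ccagccgcctGGACTgcaggggggc
Eif4ebp1 site: tccagcgagtGGACTcagaggagtc
Eif4ebp2 shared site: agcctcctatGGACTctgaatcctg
Eif4ebp2 control site: cctctgaagaGGACTgagccgccgt
Eif2ak1 site: atgtgaaagtGGACTtgcattatag
Eef2 site: tctgcaggctGGACTggcaggctgt

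Coordinates are those of the deposited lists, read as GRCm38, and distances run along the joined exons from the last base of the stop codon to the A. The Eif6 sites lay on the minus strand in the 5′ UTR, at chr2:155826620-155826644 and chr2:155826577-155826601. The Eif3a site lay 182 nt before the stop codon, in coding sequence, at chr19:60762251-60762275 on the minus strand. The Eif3j1 sites (plus strand) lay in the 3′ UTR, 628 and 684 nt past the stop codon, at chr2:122052714-122052738 and chr2:122052770-122052794. The Eif4a2 site (chr16:23113622-23113646, plus strand) lay 323 nt past the stop codon. The Eif4g1 sites (chr16:20692438-20692462 and chr16:20692485-20692509, plus strand) lay 19 and 66 nt past it.

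The Eif4ebp1 site lay 263 nt past the stop codon at chr8:27275362-27275386 on the plus strand. The shared Eif4ebp2 site lay 2124 nt past the stop codon at chr10:61431661-61431685 on the minus strand. The Eif4ebp2 control site lay 826 nt past the stop codon at chr10:61432959-61432983 on the same strand, inside a peak of the control list and outside every PTC peak. The Eif2ak1 site lay 59 nt past the stop codon at chr5:143901936-143901960 on the plus strand, and the Eef2 site 178 nt past it at chr10:81182248-81182272 on the plus strand. The other 12 sequences lay inside a peak in both lists.

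The T cell label was checked against marker genes. Each of the 10 T cell markers was listed, 9 under both conditions and Trbc2, a T cell receptor constant gene, in the PTC list alone. Of 8 B cell markers 7 had peaks in both lists, and of 8 myeloid markers 6 had peaks in both. Of 8 erythroid and platelet markers 5 were listed, 3 in PTC alone, 1 in control alone and 1 in both, with no value above 9.95. The strength of a peak is given as −log10 of the authors' false discovery rate (FDR), which grows with the evidence for a peak. The strongest peak of the B cell gene Cd79b had 272 in the PTC list and an FDR too small to be listed in the control list, against 204 and 138 for the strongest peaks of the T cell gene Cd2. For these genes, and for the translation factors, more cells of a type and more RNA per cell cannot be told apart in bulk RNA. Whether other cell types contributed to the translation factor peaks was not tested.

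Most of the translation factor genes had peaks in both conditions. Of the 57, 50 had a peak in both lists, where 79.2% of all genes did. In the PTC list alone there were 2, where 8.24% of all genes fell in that class, and in the control list alone 5, where 12.5% of all genes did. As shares these are 87.7% in both lists (95% Clopper-Pearson confidence interval 76.3 to 94.9%), 3.51% in the PTC list alone (0.428 to 12.1%) and 8.77% in the control list alone (2.91 to 19.3%). These intervals, like those below, cover counting error only.

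The genes of the PTC list alone were Eif1ax and Eif3l. Eif1ax encodes an X-linked form of eIF1A, which helps the small subunit scan to the start codon, and had 1 peak in its 5′ UTR with a −log10 FDR of 10.5 and a fold enrichment of 1.78. Fold enrichment is the authors' ratio for a peak, taken here as IP over input. Eif3l, a subunit of eIF3, had 2 PTC peaks, in coding sequence at 8.55 and 77 nt past the stop codon at 6.58. All 3 peaks were of low fold, between 1.51 and 2.06.

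The genes of the control list alone were Eif2b3, Eif2d, Eif3d, Eif3e and Eif4ebp3. Eif3d, an eIF3 subunit that can itself bind the cap, had 3 control peaks, the strongest at 6.29. Eif4ebp3, the least studied of the eIF4E-binding proteins, had 1 peak at 6.12, and its exons overlap those of another protein-coding gene on the same strand, so that peak could belong to either. Eif2d, which can deliver tRNA to the ribosome without eIF2, had 2 peaks, at 5.01 and 4.04. Eif3e, a further eIF3 subunit, had 1 peak at 3.40, and Eif2b3, a subunit of the nucleotide exchange factor eIF2B, 1 peak at 1.92. The folds of these control peaks were 21.7 and 3.99 for Eif2d, 10.5 for Eif2b3 and 8.22 for Eif3e. They were 2.62 for Eif4ebp3 and between 1.87 and 3.47 for Eif3d. None of the 7 genes found in a single list had a −log10 FDR above 10.5, whereas the median of the strongest peaks over all translation factor genes was 30.3 in the PTC list and 24.0 in the control list. Low values also marked unshared peaks of the whole lists. Their medians were 3.08 in PTC and 3.32 in control, against 9.43 and 10.1 for peaks that overlapped one of the other list.

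The lists differ in length, and the classes moved with the threshold. With peaks of a −log10 FDR of at least 5 alone, 53 of the genes remained. Of these 5 stood in the PTC list alone (Eif1, Eif1ax, Eif2s3y, Eif3l and Eif4a1), 4 in the control list alone (Eif2ak4, Eif2d, Eif3d and Eif4ebp3) and 44 in both, where 9.86%, 10.6% and 79.5% of all genes fell in these classes. With the control list reduced to the length of the PTC list, 4 were in the PTC list alone, 4 in the control list alone and 48 in both, against 13.6%, 7.53% and 78.8% of all genes. Eif1ax and Eif3l stood in the PTC list alone, and Eif2d, Eif3d and Eif4ebp3 in the control list alone, under all 3 of these definitions. With peaks of a fold of at least 4 alone, only Eif2d among them kept its class. Eif1ax, Eif3l, Eif3d and Eif4ebp3 had no such peak in either list. In the PTC list alone there were then 5 genes, where 16.0% of all genes fell in that class. They were Eef1a1, Eef1akmt4, Eif1b, Eif2b2 and Eif4ebp1, and each also had control peaks of lower fold. In the control list alone there were 9, where 24.6% of all genes fell in that class. These were Eef2kmt, Eif2b3, Eif2b4, Eif2d, Eif3a, Eif3e, Eif3i, Eif4a3 and Eif4enif1.

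**Figure D1:**
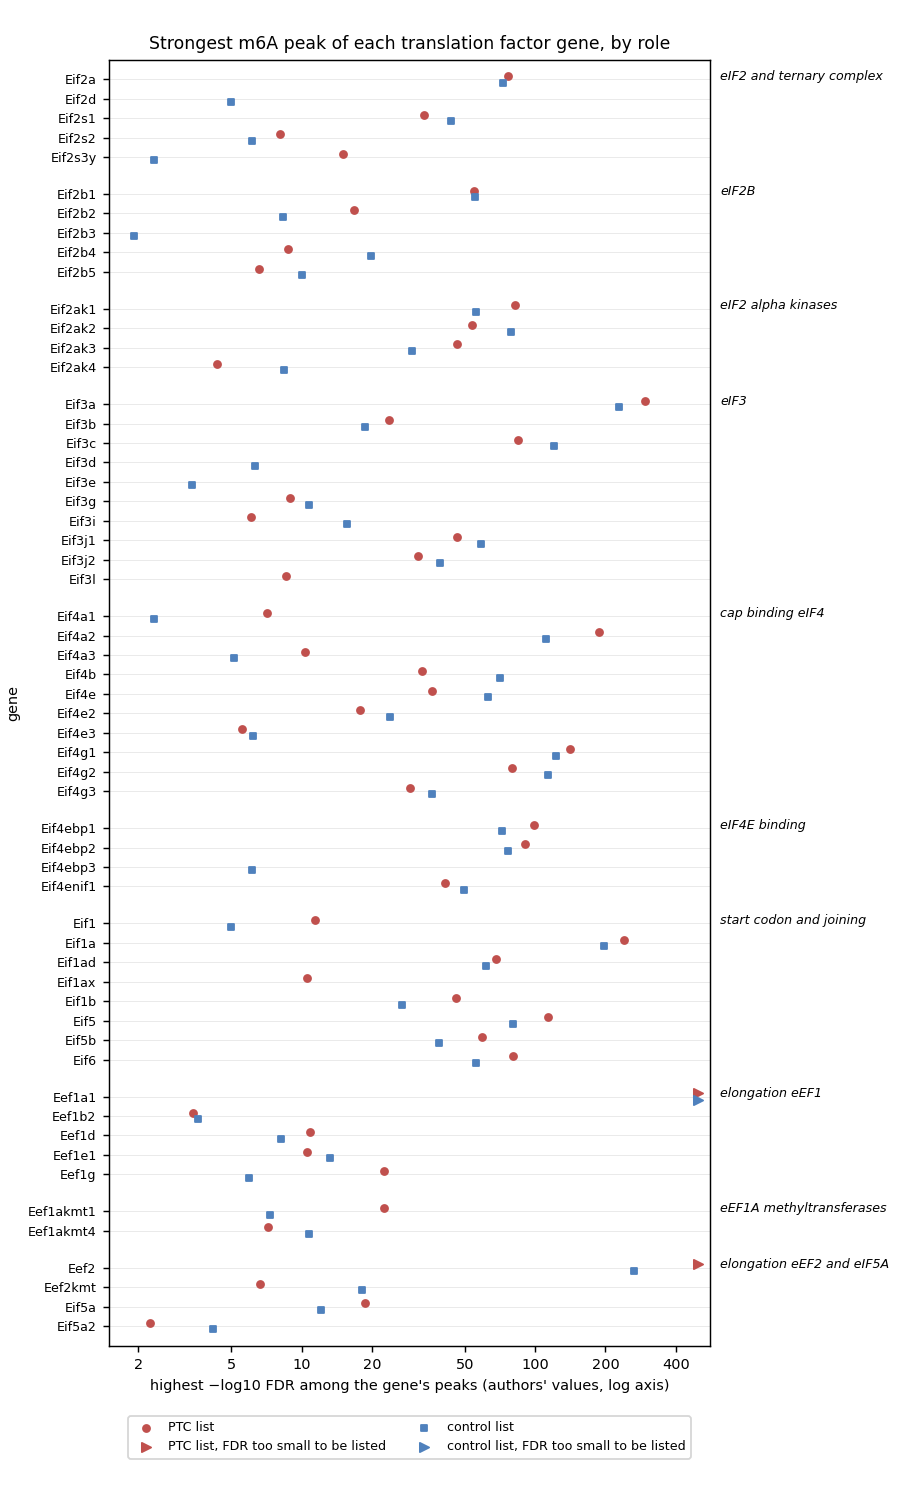
The strongest peak of each of the 57 genes, grouped by role, as the highest −log10 FDR in the PTC list (circles) and in the control list (squares) on a log axis. Triangles at the right edge are peaks whose FDR was too small to be listed, and a gene with a single symbol has no peak in the other list. Eef1a1, Eef2, Eif3a and Eif1a stand farthest right.

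Within the genes the PTC peaks were fewer and were mostly a subset of the control regions. The ratio of peak numbers, PTC over control, was 0.761 for the translation factor genes and 0.790 for all genes, and the ratio of covered bases was 0.756 and 0.806. The translation factor peaks covered 48005 nt in the PTC list and 63501 nt in the control list, with 40335 nt in common. That is 84.0% of the PTC bases and 63.5% of the control bases, where the same shares over all genes were 80.1% and 64.5%. Of the PTC peaks 98 of 118 (83.1%, interval 75.0 to 89.3%) shared at least 1 base with a control peak, where 78.8% of all PTC peaks did. Of the control peaks 91 of 155 (58.7%, 50.5 to 66.5%) shared a base with a PTC peak, where 60.2% of all control peaks did. These shares are close to those of the whole lists.

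Among the 50 genes in both lists, 5 had more PTC than control peaks, where 16.0% of all such genes did, and 21 had fewer, where 41.6% did. A deficit of at least 3 peaks was seen for Eif5b, Eif4ebp2 and Eif2s2, that is for 3 of 50 genes, where 8.22% of all genes showed it. No gene had 3 or more PTC peaks above its control number, where 0.844% of all genes did. Eef1b2 and Eif5a2 shared no base between the lists, which held for 5.30% of all genes. The strongest peaks of a gene in each list overlapped for 39 of the 50 (78.0%), and for 80.4% of all genes in both lists.

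**Figure D2:**
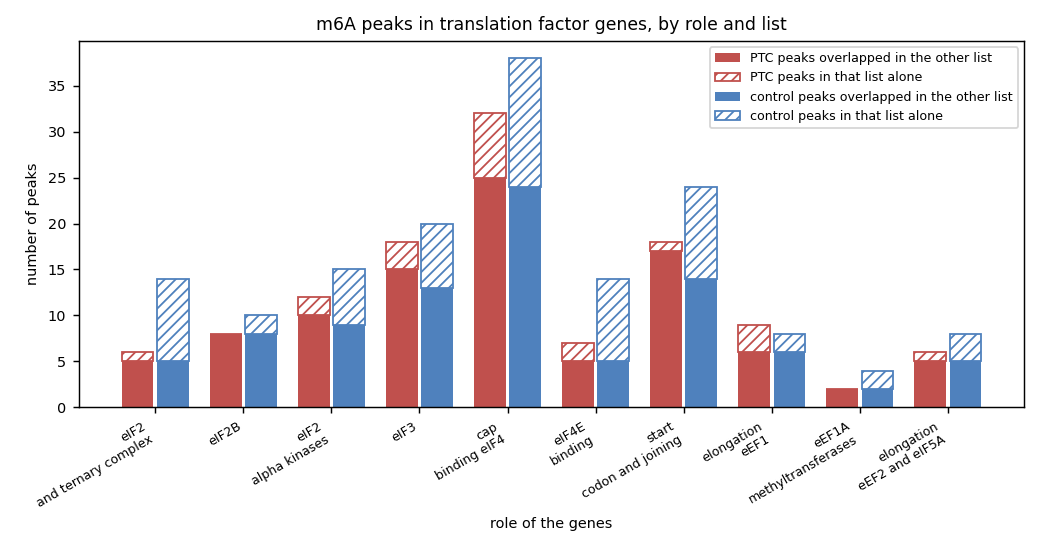
Number of peaks by role of the gene, PTC left and control right of each pair. Filled parts are peaks that share at least 1 base with a peak of the other list and hatched parts are peaks of that list alone. The hatched part is larger for control than for PTC in every role but eEF1, where it is 3 peaks for PTC and 2 for control. Over the whole lists, too, fewer control than PTC peaks shared a base with the other list, 60.2% against 78.8%.

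Of the eIF2 group, which forms the ternary complex with initiator tRNA, 5 of 6 genes were listed, with 6 PTC and 14 control peaks. Eif2s1, the alpha subunit whose phosphorylation lowers general initiation, had its strongest peak at 33.3 in the PTC list and at 43.5 in the control list, 156 and 111 nt past the stop codon. These peaks shared 419 nt, and the gene's 2 further peaks, 1 in each list, had no counterpart. Eif2s2, the beta subunit, had 1 PTC peak and 5 control peaks. Its PTC peak, at 8.08, lay 164 nt past the stop codon and overlapped a control peak at 5.35. The other 4 control peaks of Eif2s2 ranged between 2.29 and 6.16 and 3 of them stood at 2.42 or below. Eif2a, an alternative tRNA-binding factor, had the highest values of the group, 76.4 in the PTC list and 72.9 in the control list, in coding sequence. Eif2s3x, the X-linked gamma subunit, had no peak in either list, and its Y-linked copy Eif2s3y had 15.1 in the PTC list and 2.34 in the control list.

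All 5 genes of eIF2B, which reloads eIF2 with GTP, were listed, with 8 PTC and 10 control peaks. All 8 of the PTC peaks overlapped a control peak. Eif2b5, the catalytic subunit, had 3 peaks in each list and every one had a counterpart. Its strongest stood at 6.59, across the stop codon, in the PTC list and at 10.0, in coding sequence, in the control list. Eif2b1, a regulatory subunit, had 1 peak in each list, at 55.0 in PTC and 55.5 in control, with folds of 6.20 and 8.97. The strongest peaks of Eif2b2 and Eif2b4, further subunits, lay in coding sequence, at 16.8 and 8.78 in PTC and at 8.29 and 19.8 in control.

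All 4 eIF2 alpha kinases, each of which answers a different stress, had peaks in both lists, 12 in PTC and 15 in control. Eif2ak1, the heme-regulated kinase HRI, had its strongest peak across the end of the coding sequence at 82.3 in the PTC list and 56.0 in the control list. The Eif2ak1 sequence printed above lay in both. Eif2ak2, the double-stranded RNA kinase PKR, carried a chain of 3′ UTR peaks, of which the strongest reached 53.9 over 1077 nt in the PTC list and 78.7 over 1347 nt in the control list. Eif2ak3, the endoplasmic reticulum kinase PERK, had its strongest peak in coding sequence, 46.2 in PTC and 29.6 in control, and a 3′ UTR peak at 28.8 and 26.2. Both of these Eif2ak3 regions stood in both lists, and 2 control peaks at 2.50 and 2.35, with folds of 12.7 and 1.85, did not. Eif2ak4, the amino acid sensor GCN2, had the weakest values of the 4, a coding peak at 4.36 in the PTC list and at 8.44 in the control list.

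Of the eIF3 genes 10 of 13 were listed, with 18 PTC and 20 control peaks, and Eif3f, Eif3k and Eif3m had none. Eif3a, the largest scaffold subunit, held the widest peaks of the group. In the PTC list a single peak of 2932 nt over 11 exon blocks reached 296, and in the control list 2 peaks lay over the same stretch, of 2274 nt at 229 and of 899 nt at 18.0. Both lists gave Eif3a 4 peaks, and they covered 3563 nt in PTC and 3534 nt in control, with 3205 nt in common. Eif3c, a second core subunit, had its strongest peak in coding sequence too, at 84.3 over 715 nt in the PTC list and at 121 over 1161 nt in the control list. The control peak of Eif3c overlapped 2 PTC peaks, so here the control list joined what the PTC list divided. The strongest peaks of the subunits Eif3b, Eif3g and Eif3i lay in coding sequence, at 23.7, 8.90 and 6.07 in PTC and at 18.7, 10.8 and 15.6 in control. For Eif3i they overlapped, but for Eif3b and Eif3g they lay at different places. The control peaks overlapping the strongest PTC peaks of Eif3b and Eif3g stood at 11.7 and 4.30. The PTC peaks overlapping their strongest control peaks stood at 2.25 and 5.14.

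Eif3j1 and Eif3j2, near-identical copies of the eIF3 subunit that guides the mRNA channel, had 1 peak each in both lists. The Eif3j1 peak had the same 629 nt in both, in the 3′ UTR, with a fold of 15.1 in PTC, the highest of all 118 PTC peaks, and of 12.7 in control. Part of the sequence under each of these peaks matched the other copy with at least 99.1% identity over 100 nt or more, so reads could have been placed in either.

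The cap-binding group had the most peaks, 32 in PTC and 38 in control, in 10 of 11 genes. The missing gene was Eif4h, which helps the eIF4A helicase. Eif4e, which binds the cap, had its strongest peak in the 3′ UTR over nearly the same bases in both lists, at 36.2 over 689 nt in PTC and 62.6 over 659 nt in control. The paralogous helicases Eif4a1 and Eif4a2 differed in level of evidence in both lists. Eif4a2 had its strongest peak in the 3′ UTR, at 187 in the PTC list and 111 in the control list, around the sequence printed above. Eif4a1 reached 7.08 in the PTC list and 2.33 in the control list, at different places of the gene. The 91 nt that Eif4a1 shared between the lists lay in weaker peaks, at 4.18 in PTC and 1.86 in control. Since the FDR of a peak also depends on how many reads a transcript has, these values do not rank the genes by methylation. Eif4a3, the related helicase of the exon junction complex, had 10.3 in PTC and 5.11 in control, at different places of the coding sequence, and Eif4b, which stimulates eIF4A, had 32.8 in PTC and 70.7 in control around the same 571 nt. The cap-binding relatives Eif4e2 and Eif4e3 had their strongest peaks in the 3′ UTR, at 17.8 and 5.54 in PTC and at 24.0 and 6.18 in control. For Eif4e3 these peaks did not overlap, and the control peak that overlapped its PTC peak stood at 2.69.

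Eif4g1, the scaffold that joins the cap-binding protein to eIF3, had 5 peaks in each list and its strongest at the stop codon, at 141 in PTC and 123 in control. These strongest peaks shared 390 nt and held both Eif4g1 sequences printed above. Upstream, the peaks of Eif4g1 were narrow in PTC and wide in control, so that the gene had 1681 nt covered in the PTC list and 4073 nt in the control list. No other of the 57 genes differed by more covered bases. Of the PTC bases 92.9% were also in control peaks, and of the control bases 38.3% in PTC peaks. Eif4g2, a relative that works without the cap, had 7 PTC and 6 control peaks, of which 5 in each list had a counterpart. Its strongest peak, at 79.4 in PTC and 114 in control, was the same region in both lists and had its midpoint in an exon annotated as a retained intron. Eif4g3, a further scaffold, had its strongest peak in the 3′ UTR at 29.2 in PTC and in coding sequence at 36.3 in control, and all 4 of its PTC peaks had a counterpart.

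Of the eIF4E-binding group, all 4 genes were listed, with 7 PTC and 14 control peaks. Eif4ebp1 and Eif4ebp2 encode the mTOR targets 4E-BP1 and 4E-BP2, which hold eIF4E away from eIF4G. Eif4ebp1 had a peak across the stop codon at 98.5 in the PTC list and 72.0 in the control list. A further PTC peak of Eif4ebp1, 732 nt past the stop codon, had a value of 11.9 and no control counterpart, and the covered length was 803 nt in PTC and 387 nt in control. Eif4ebp2 had the opposite layout. Its 2 PTC peaks, at 90.6 and 11.0, both overlapped control peaks, at 76.7 and 14.6, in a 3′ UTR that is far longer than the coding sequence. The other 5 control peaks of Eif4ebp2 lay in the same 3′ UTR with values between 3.91 and 7.73 and folds between 1.68 and 2.14. Eif4ebp2 thus had 871 nt covered in PTC, all of them shared, and 2523 nt in control. Eif4enif1, which carries eIF4E into the nucleus, had 41.2 in PTC and 49.4 in control, at the same place in the 3′ UTR.

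**Figure D3:**
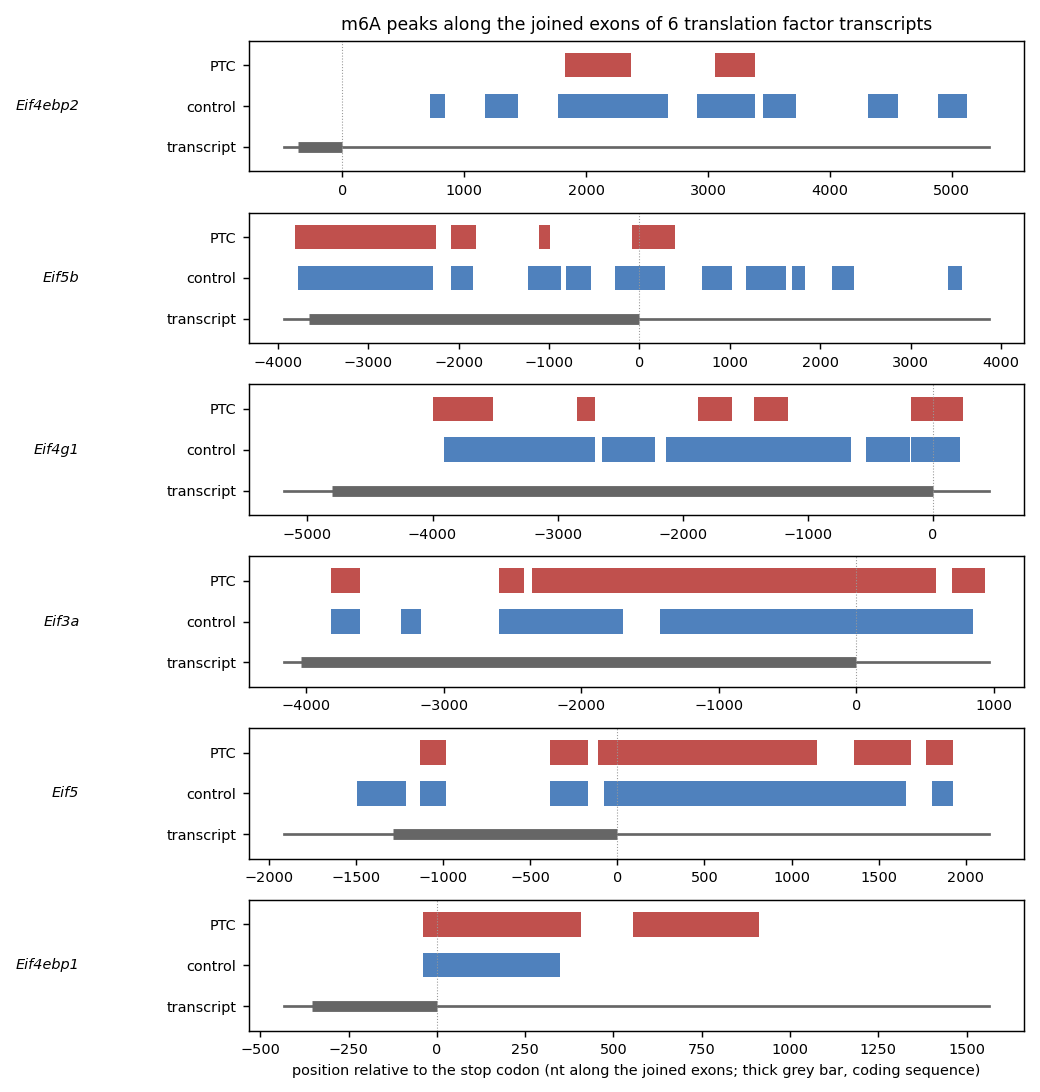
Peaks along the joined exons of 6 transcripts, PTC above control, with the position relative to the stop codon in nt and the coding sequence as a thick grey bar. 1 control peak of Eif5, outside these exons, is not drawn. Peaks that run past these exons, such as some of Eif5 and Eif4g1, are drawn only for the part inside them. The PTC peaks of Eif4ebp2 fall within control peaks, and those of Eif5b and Eif4g1 do so for 91.3% and 92.9% of their bases. Eif3a has 3563 nt covered in PTC and 3534 nt in control. Eif4ebp1 has a PTC peak with no control counterpart, and that peak holds no GGACT.

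The genes that act at the start codon and in subunit joining had 18 PTC and 24 control peaks, and all 8 were listed. Eif5, which makes eIF2 hydrolyse its GTP once the start codon is found, had its strongest peak in the 3′ UTR, at 114 over 1257 nt in PTC and 80.8 over 1735 nt in control. All 5 PTC peaks of Eif5 and 4 of its 6 control peaks had a counterpart. Eif5b, the GTPase that joins the subunits, had 4 PTC and 10 control peaks. The 4 PTC peaks, at 59.2, 40.6, 33.4 and 2.65, overlapped 4 control peaks at 38.9, 27.9, 31.7 and 5.20. The other 6 control peaks ranged between 2.31 and 7.40, with folds between 1.97 and 15.7, and 5 of them lay in the 3′ UTR. Of all control peaks of Eif5b, 3 overlapped the gene Rev1 on the opposite strand, and whether the libraries kept the strand is not given in the sources used here. Genes on the opposite strand also overlapped peaks of Eef2kmt, Eif2ak1 and Eif2b4 in both lists. The same held for peaks of Eif1ad and Eif3d in the control list and of Eif2ak2 and Eif4a2 in the PTC list.

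Eif6, which keeps the large subunit from joining too early, had a single peak in each list and it lay in the 5′ UTR. It stood at 80.5 with a fold of 7.44 in PTC and at 56.1 with a fold of 4.95 in control, over 328 and 298 nt, and held both Eif6 sequences printed above. Eif1, the start codon fidelity factor, had 1 PTC peak at 11.4 and 2 control peaks at 4.98 and 4.91. Its copy Eif1b had 45.7 in PTC and 26.8 in control. Eif1a, the autosomal form of eIF1A, had 240 in PTC and 198 in control, and its 3 PTC peaks all overlapped a single control peak of 2669 nt. Eif1ad, named for its likeness to eIF1A, had 68.0 in PTC and 61.5 in control, at the same place of the 3′ UTR.

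Of the 6 eEF1 genes 5 were listed, with 9 PTC and 8 control peaks. Eef1a1, the carrier of aminoacyl tRNA and among the most abundant proteins of the cell, had the same 476 nt around the stop codon as its strongest peak in both lists, and in neither was the FDR large enough to be listed. Its fold there was 4.13 in PTC and 3.41 in control. Eef1a1 matched 18 other genes, mainly processed pseudogenes, at 95% identity or more over at least 100 nt, so its assignment is uncertain. Eef1a2, the form of muscle and nerve, had no peak. Eef1b2, the exchange factor for eEF1A, had 2 PTC peaks, at 3.43 and 3.23 with folds of 1.24 and 1.15, and 2 control peaks at 3.59 and 2.80 elsewhere in the gene. Eef1d and Eef1g, which belong to the same exchange complex, had 1 peak in each list at the same place, at 10.9 and 22.5 in PTC and at 8.17 and 5.94 in control. Eef1e1, a part of the tRNA synthetase complex, had 10.5 in PTC and 13.2 in control. Of the methyltransferases that modify eEF1A, Eef1akmt1 had 22.5 in PTC and 7.33 in control and Eef1akmt4 had 7.15 in PTC and 10.8 in control.

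Of the eEF2 and eIF5A genes 4 of 5 were listed, with 6 PTC and 8 control peaks. Eef2, the translocase, had its strongest peak around the stop codon, with a −log10 FDR beyond the listed range in PTC and of 264 in control, over 719 and 749 nt. All 3 PTC peaks of Eef2 had a control counterpart, and the control list held 1 more, at 7.20. Eef2k, the kinase that switches eEF2 off, had no peak in either list. Eif5a, which eases peptide bond formation at prolines, had a 5′ UTR peak at 18.6 in PTC and at 12.1 in control, over 238 and 239 nt. Eif5a2, its tissue-restricted copy, had 1 weak peak in each list, at 2.24 in PTC and 4.16 in control, at different places of the 3′ UTR. Eef2kmt, the methyltransferase of eEF2, had 6.61 in PTC and 18.2 in control at the same place of the 3′ UTR.

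The translation factor peaks had high confidence and low fold. In the PTC list their median −log10 FDR was 10.9, where that of all peaks was 6.61, and in the control list 7.73, where it was 5.47. The median fold enrichment was 2.41 in the PTC list and 2.57 in the control list, where it was 3.66 and 3.65 over all peaks. A fold under 2 was found for 43 of 118 PTC peaks (36.4%, interval 27.8 to 45.8%), where 13.0% of all PTC peaks had one. For control it was 44 of 155 peaks (28.4%, 21.4 to 36.2%), where 11.6% of all did. Peaks with both a −log10 FDR of at least 5 and a fold under 2 made up 24.6% of the PTC and 18.7% of the control peaks of these genes, against 5.60% and 4.80% of all peaks. Peaks that spanned 2 or more exon blocks made up 39.8% in PTC and 43.2% in control, against 23.5% and 27.8% of all peaks. The median peak width was 284 nt in PTC and 270 nt in control, against 270 and 268 nt over all peaks. Transcript levels are not in the tables, and their part in these values was not tested.

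**Figure D4:**
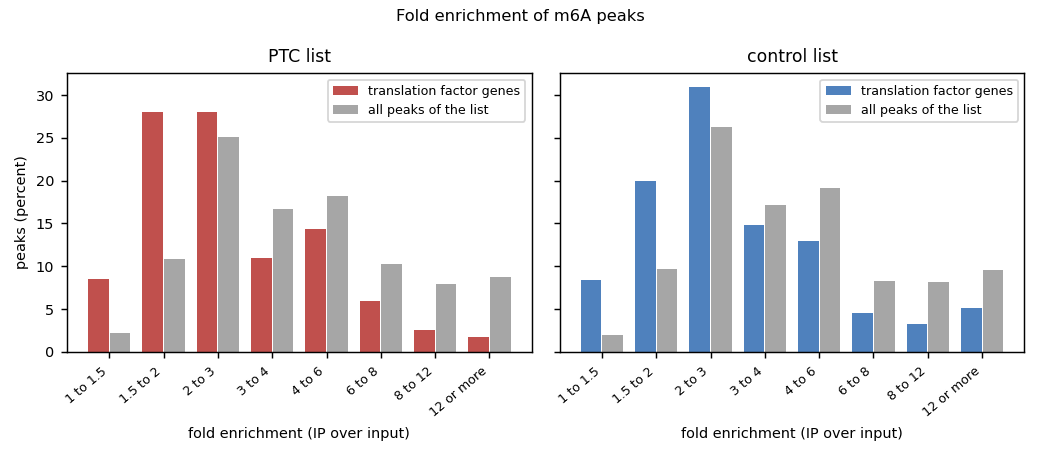
Share of peaks by fold enrichment, PTC list left and control list right, for the translation factor genes (coloured) and all peaks of the list (grey). Folds under 2 make up 36.4% of the PTC and 28.4% of the control peaks of these genes, against 13.0% and 11.6% of all peaks.

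Along the transcript the peaks lay mainly in 3′ UTRs and coding sequence. In the PTC list 60 of 118 midpoints (50.8%, interval 41.5 to 60.2%) fell in a 3′ UTR and 49 (41.5%, 32.5 to 51.0%) in coding sequence, where 49.3% and 40.7% of all PTC midpoints in protein-coding genes did. In the control list 64 of 155 (41.3%, 33.5 to 49.5%) fell in a 3′ UTR and 63 (40.6%, 32.8 to 48.8%) in coding sequence, where 45.6% and 41.8% did. Within 200 nt of a stop codon there were 25 of the PTC (21.2%) and 27 of the control midpoints (17.4%), against 21.3% and 15.9% of all. The fold was lower in coding sequence, with a median of 1.87 for PTC and 2.27 for control peaks, than in 3′ UTRs, with 2.77 and 2.91. Over all peaks the coding medians were 3.81 for PTC and 3.47 for control, and the 3′ UTR medians 3.51 and 3.57, so that in the whole PTC list the coding median was the higher of the pair.

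Peaks in exons of noncoding transcripts, mostly retained introns, were rare in PTC and more frequent in control. Only 2 PTC midpoints (1.69%, interval 0.206 to 5.99%) but 20 control midpoints (12.9%, 8.06 to 19.2%) lay in an exon that belongs to no coding transcript of the gene, where 4.15% of all PTC and 6.51% of all control midpoints did. The 2 PTC peaks were in Eif4g2 and Eif4a2, and the control peaks were in 16 genes. Of the 20 control peaks 15 lay in an exon of a retained-intron transcript, 15 had a −log10 FDR under 5, and 2 overlapped a PTC peak. They include the strongest peaks of Eif2b3, Eif2d and Eif3e, 3 of the 5 genes found in the control list alone. Among control peaks with no PTC counterpart, 18 of 64 (28.1%, 17.6 to 40.8%) were of this kind, against 11.7% of all such control peaks. Among PTC peaks with no control counterpart it was 1 of 20 (5.00%), against 9.31%.

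**Figure D5:**
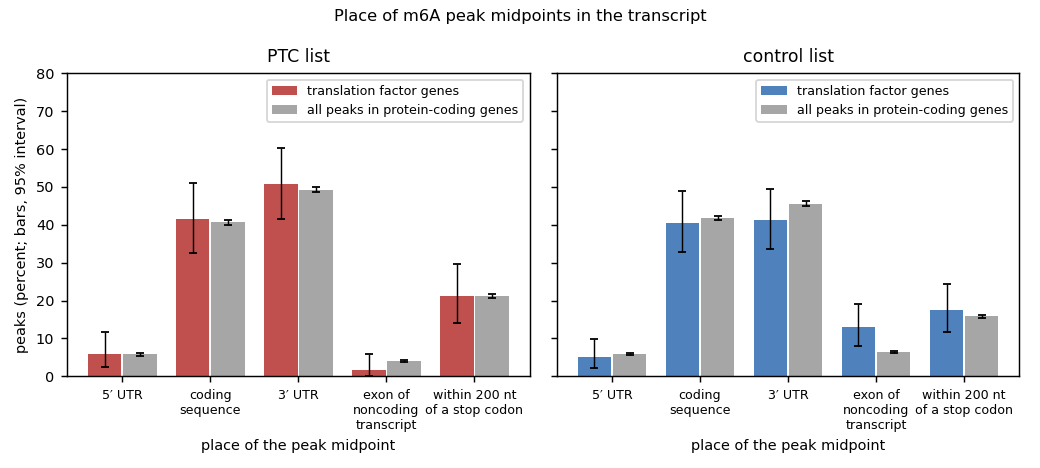
Share of peak midpoints by place in the transcript, PTC list left and control list right, for the translation factor genes (coloured) and all peaks in protein-coding genes (grey), with 95% Clopper-Pearson intervals. The coloured bar is higher than the grey one for exons of noncoding transcripts in the control list, 12.9% against 6.51%, and lower in the PTC list, 1.69% against 4.15%.

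GGACT lay within 50 nt of the midpoint, a window of 101 nt, in 20 of 116 PTC peaks (17.2%, interval 10.9 to 25.4%) and in 23 of 135 control peaks (17.0%, 11.1 to 24.5%). The same windows held it for 13.3% of all PTC and 11.9% of all control peaks. Only peaks with a midpoint in an exon of a coding transcript were scored for GGACT, in all 20014 PTC and 24910 control peaks. In 3′ UTRs the share was 21.7% in PTC and 17.2% in control, against 13.4% and 11.3% of all 3′ UTR peaks. In coding sequence it was 12.2% in PTC and 15.9% in control, against 13.1% and 12.1% of all coding peaks, and in 5′ UTRs 1 of 7 PTC peaks and 2 of 8 control peaks held it. Anywhere in the peak, GGACT was found in 42.2% of PTC and 44.4% of control peaks, against 38.9% and 35.8% of all. The intervals for the windows take in the values of the whole PTC and control lists.

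Of the 57 genes, 16 had a peak with a stretch of at least 100 nt that matched another gene at 95% identity or more, and the gene to which such a peak belongs is uncertain. They were Eef1a1, Eef1akmt4, Eef1b2, Eef1d, Eef1g, Eef2, Eef2kmt, Eif1, Eif1a, Eif2s1, Eif3j1, Eif3j2, Eif4a2, Eif4a3, Eif4b and Eif4ebp3. For Eef2 all 3 PTC peaks and 3 of the 4 control peaks matched the same processed pseudogene, at up to 97.6% identity. For Eif1 both control peaks matched other genes, 13 in all, and its PTC peak matched none. For Eif4a2, 1 PTC and 1 control peak matched a processed pseudogene, at up to 98.2% identity.

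The partners of these factors, from a list of regulators, release factors and mitochondrial factors, were described in the same way. Of 39 genes 38 were listed, 35 under both conditions, where 79.2% of all listed genes stood in both lists. Paip1, which binds the poly(A)-binding protein, stood in the PTC list alone at 2.05. Mknk2, a kinase of eIF4E, and Gcn1l1, an activator of GCN2, stood in the control list alone at 5.73 and 3.47. Larp1, a repressor of mRNAs for the translation machinery, had the strongest peak of the list, at 247 in PTC and 218 in control. Ppp1r15b, the phosphatase subunit that reverses eIF2 phosphorylation, had 207 in PTC and 141 in control. Abcf1, a partner of eIF2, came next in PTC with 126, and Etf1, the release factor, in control with 107.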

How the data were processed

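The authors deposited 1 m6A peak list per condition with exon blocks, a p-value, p and FDR scores on a log10 scale, and a fold enrichment as a linear ratio, per the file headers. The authors' deposited summary table gives a count of 15855 PTC and 19420 control peaks, fewer than the 23368 and 29586 rows of the lists used here, and a percent of reads in peaks; why the counts differ is not stated, and neither was used. BWA 0.7.12, MACS2 2.1.0 and the build GRCm39 are named per the submitters' processing notes; the settings of the peak caller, and any pooling of samples, are not stated there. In GENCODE M21 the gene of the same identifier contained 99.8% of PTC and 99.9% of control peaks, so coordinates are read as GRCm38. Depth is unknown, since no read counts are given.

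Peaks overlapped when they shared 1 base of exon on the same strand. Midpoints were placed on the coding transcript preferred by APPRIS, then on longer ones. Sequences came from GENCODE M21 transcripts. Copies were searched with blastn 2.17.0, at 95% identity over 100 nt. Python 3.11.15, pandas 2.3.3 and scipy 1.17.1 were used, and the mapping, midpoint, region and overlap functions were tested on simulated data. No p-value was computed. The genes and lists were chosen with earlier results of these data known. Genes named by rule were those in 1 list only, the 6 strongest in each list, those differing by 3 or more peaks, those with no shared base, and a set of core factors. Of the partners, the rule took those in 1 list only and the 3 strongest in each list. Other genes were named after their values were seen.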

Additional observations from a re-analysis of the deposited data

How the results depend on the processing

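Of 25 alternatives, 14 stayed within the interval of the reported share or within 1.5 times the reported count, and 11 did not. The number of genes in the PTC list alone was 5 with peaks of a −log10 FDR of at least 5, 5 with peaks of a fold of at least 4, and 4 with the control list reduced to the length of the PTC list, against 2 as reported. With a fold of at least 4, 9 genes stood in the control list alone and 19 in both, since 33 of the 57 had such a peak, against 5 and 50 as reported. At that fold 16.0% of all genes stood in the PTC list alone, 24.6% in the control list alone and 59.4% in both. With midpoints within 100 bases as the definition of overlap, 57.6% of PTC and 43.9% of control peaks had a counterpart. Among control peaks past a −log10 FDR of 5, 66.7% did when PTC peaks were held to the same threshold. A distance limit of 100 nt to the stop codon was met by 10.2% of PTC and 7.74% of control midpoints, by construction fewer than the limit of 200 nt. With 100 nt to each side of the midpoint, the windows of 30.2% of PTC peaks held GGACT. No paired analysis was possible because the lists hold no value per sample and the titles number the samples without pairing them; for the same reason no sample could be left out. With 1 list per condition, sample-to-sample spread is unknown. A gene without a peak may have too few reads for a call.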

Other observations

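The lists also hold 3 genes with no symbol of their own whose identifiers belong to pseudogenes of these factors in GENCODE M21. Eif5al3-ps and Eif4a-ps4 had 1 peak in the PTC list and 1 in the control list, and Eif3s6-ps4 had 1 peak in the PTC list and 0 in the control list. They were not counted among the 57 genes.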
